A study of Mus musculus with 20 samples.

Results

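The data compared gastruloids at 120 h, grown without Matrigel, with the 96 h aggregates, and asked which genes changed over these 24 h. The comparison took all bulk RNA-seq libraries of both groups, which were 6 of the 20 samples of the series. All groups came from 1 line of mouse embryonic stem cells of strain F1G4 with the genotype T::H2B-mCherry/Sox2::H2B-Venus, in which fluorescent histones report the transcription factors Brachyury (gene symbol T) and Sox2. The cells were freed from their feeder layer, aggregated in low-attachment wells, and pulsed after 48 h with 3 µM CHIR99021, an inhibitor of the kinase GSK3 that activates WNT signalling. The 96 h group had 3 libraries, each from 10 pooled aggregates, which the labels call precursors of trunk-like structures. The 120 h group had 3 libraries, each from 6 pooled gastruloids made by the Beccari protocol. Another group, TLSMG, also of 3 libraries of 6 pooled structures at 120 h, had been embedded in Matrigel, which is rich in laminin and collagen IV, and was used here only to see whether levels at 120 h depended on that gel. T, Sox2 and Meox1, markers of axial progenitors, neural cells and somites, were present in all 6 libraries. Because 1 line was used and structures were pooled, the spread between libraries describes pools of one genotype and not single structures.

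Gastruloids are aggregates of embryonic stem cells that elongate and lay out parts of the body axis. In the embryo, cells of the tailbud and presomitic mesoderm are held in a progenitor state by WNT and FGF signals, and they leave it when a boundary programme turns segments of this tissue into somites. Somites later divide into sclerotome, the source of vertebrae and ribs, and dermomyotome, the source of muscle and dermis, while neighbouring cells form the neural tube.

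Levels are given as TPM, a transcript abundance that is corrected for length and scaled to the same total in every library. Differences are of log2(TPM + 1), 120 h minus 96 h, from limma, and a gene was called when its Benjamini-Hochberg adjusted p over all genes tested was under 0.05. The added 1 shrinks the difference of genes with low levels. Of 54446 gene IDs, 14290 were tested, those whose TPM averaged 1 or more across the 15 bulk libraries. Without Matrigel, 5894 genes changed (41.2% of those tested), 2969 higher at 120 h (20.8%) and 2925 lower (20.5%). Counts of called list members below are to be read beside these shares, and counts near them do not set a list apart. With a difference of at least 1 added to the rule, 567 genes were higher (3.97%) and 470 lower (3.29%). The median difference over all genes tested was 0.004, so neither direction prevailed on this scale. On FPKM, which divides by library size and not by the TPM total, the split was 3931 higher and 2371 lower, or 62.4% higher among the called genes against 50.4% on TPM. A difference of at least 2 was found for 132 genes that rose and 133 that fell, and of at least 4 for 12 and 18. The scatter of levels shows these at the edges of a band of genes that differed little. Genes are named as the 15 largest rises and falls among called genes whose groups did not overlap. In each list they are the 4 called members with the largest difference, the member with the highest level and members that were not called. Called members named beyond these, T, Cdx2 and Hoxd9 among them, were chosen after their values were seen.

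**Figure D1:**
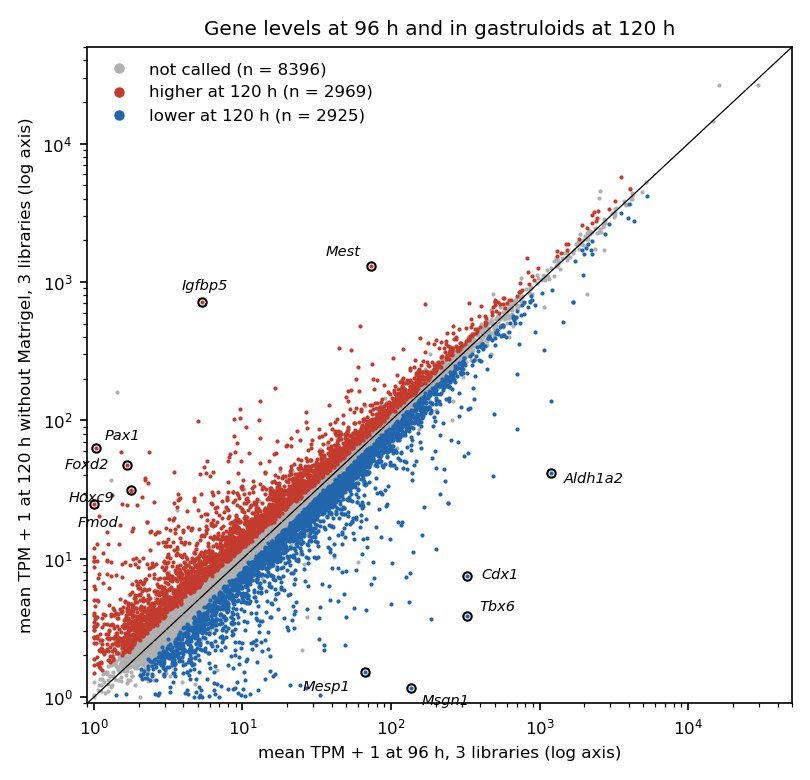
Mean TPM + 1 of each of the 14290 genes tested at 96 h (horizontal) and in gastruloids at 120 h without Matrigel (vertical), both on log axes, over 3 libraries each. Red and blue points are genes called higher or lower, grey points were not called, the line marks equal levels, and 11 of the named genes are ringed, Igfbp5 and Pax1 far above the line and Msgn1 and Tbx6 far below it.

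The promoters of 4 genes that fell are shown because TCF/LEF, T-box, RBPJ and CDX factors are known to bind short DNA motifs. The letters come from RefSeq (GRCm38.p6), 5′ to 3′ on the gene's own strand, from the 250 bases before each RefSeq start and cut where the tables' gene model begins. Capitals mark 4 motifs searched on both strands: CTTTGAT or CTTTGAA for TCF/LEF, the DNA-binding partners of WNT signalling, GGTGTGA for T-box factors, GTGGGAA for RBPJ, the DNA-binding partner of Notch, and TTTATG for CDX factors. Msgn1 is a bHLH factor of presomitic mesoderm (chr12:11208973-11209198, minus strand), Sp5 a zinc finger factor induced by WNT (chr2:70474673-70474922, plus strand), Ripply2 a repressor of T-box factors at somite boundaries (chr9:87015287-87015536, plus strand) and Lfng a glycosyltransferase that modifies Notch (chr5:140607091-140607319, plus strand).
Msgn1: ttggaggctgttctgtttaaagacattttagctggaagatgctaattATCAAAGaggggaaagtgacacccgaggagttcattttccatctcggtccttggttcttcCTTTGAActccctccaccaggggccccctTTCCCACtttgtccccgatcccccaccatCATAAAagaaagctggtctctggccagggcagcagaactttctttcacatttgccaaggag
Sp5: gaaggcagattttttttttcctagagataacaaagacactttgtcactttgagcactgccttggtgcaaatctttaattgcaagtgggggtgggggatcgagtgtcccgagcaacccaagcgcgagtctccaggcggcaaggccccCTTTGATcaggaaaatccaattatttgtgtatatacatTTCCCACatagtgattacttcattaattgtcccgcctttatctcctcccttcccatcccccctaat
Ripply2: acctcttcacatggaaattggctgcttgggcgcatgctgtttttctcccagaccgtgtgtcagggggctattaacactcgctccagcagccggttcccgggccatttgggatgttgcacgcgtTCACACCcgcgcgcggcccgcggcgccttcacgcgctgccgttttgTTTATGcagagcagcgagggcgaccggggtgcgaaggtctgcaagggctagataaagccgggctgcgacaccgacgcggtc
Lfng: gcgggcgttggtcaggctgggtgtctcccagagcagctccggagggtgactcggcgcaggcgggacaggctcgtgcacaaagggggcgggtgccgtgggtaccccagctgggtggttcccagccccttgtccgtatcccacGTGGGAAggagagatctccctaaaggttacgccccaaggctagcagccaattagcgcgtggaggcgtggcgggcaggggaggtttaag
The Msgn1 window held both TCF/LEF forms, 1 RBPJ and 1 CDX motif, and none of these overlapped. The Sp5 window held 1 TCF/LEF and 1 RBPJ motif, that of Ripply2 1 T-box and 1 CDX motif, and that of Lfng 1 RBPJ motif. Over 32851 RefSeq promoters, 7.48% held a TCF/LEF, 3.33% a T-box, 5.42% an RBPJ and 10.8% a CDX motif in the 250 bases before the start. Of 17 promoters of 15 presomitic and tailbud factors found in that table, 5 held a TCF/LEF motif (Mesp1, Msgn1, Sp5, Sp8 and T) and 4 a CDX motif (Msgn1, Ripply2, Sp8 and T). A T-box motif was in 2 of these promoters (Ripply1 and Ripply2). Of 12 promoters of 11 clock and Notch genes, 3 held an RBPJ motif (Hes7, Hey2 and Lfng) and 0 a TCF/LEF motif. Of 16 promoters of WNT feedback and target genes, 2 held a TCF/LEF motif (Dkk1 and Sp5). Among lists that mostly rose, 7 of the 15 genes of Hox groups 5 to 9 were found, with 7 promoters. Of these, 2 held a CDX motif (Hoxa7 and Hoxb8). A TCF/LEF motif was in 1 (Hoxd8, not called) and a T-box motif in 1 (Hoxd9, which fell). The 8 sclerotome and 11 SoxB1 and neural promoters held 0 TCF/LEF, T-box or CDX motifs, and 1 of the latter 11 held an RBPJ motif (Hes5). Sp8 and Hey2 were not called between 96 h and 120 h, so motifs were not confined to genes that fell. These are matches of letters, and binding was not measured.

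Transcription factors of presomitic mesoderm and tailbud fell almost together. Of 18 listed, 16 were tested, 13 were lower and 1 higher, with a median difference of -2.62 against 0.004 over all genes, and 12 fell by at least 1. Msgn1 was at 98.9, 138 and 172 TPM at 96 h and 0, 0.167 and 0.328 TPM at 120 h. The groups were far apart, with every 96 h library near 100 TPM or above and no 120 h library at 1 TPM, and Msgn1 fell by 6.85 ± 0.22 (SE, adjusted p = 5.38e-11). Tbx6, the T-box factor that directs cells to paraxial mesoderm, was at 254, 349 and 365 TPM at 96 h and 1.28, 3.66 and 3.72 TPM at 120 h. All 3 gastruloid libraries lay far below the 96 h libraries, and Tbx6 fell by 6.44 ± 0.26 (SE, adjusted p = 4.87e-10). Mesp1 and Mesp2, bHLH factors of the forming somite boundary, behaved alike. Mesp1 was at 61.4, 68.2 and 68.0 TPM at 96 h and 0, 0.693 and 0.861 TPM at 120 h, and Mesp2 was at 122, 140.2 and 131 TPM at 96 h and 1.75, 4.46 and 5.51 TPM at 120 h. Neither gene had overlapping groups; Mesp1 fell by 5.51 ± 0.20 (SE, adjusted p = 1.61e-10) and Mesp2 fell by 4.84 ± 0.26 (SE, adjusted p = 6.28e-09). Ripply2 was at 208, 185 and 159 TPM at 96 h and 0.617, 3.35 and 4.07 TPM at 120 h. It fell by 5.80 ± 0.34 (SE, adjusted p = 1.51e-08), with gastruloid replicate 1 the lowest library, whereas its relative Ripply1 was at 15.4, 5.71 and 5.92 TPM at 96 h and 6.87, 6.55 and 7.46 TPM at 120 h. The Ripply1 groups overlapped and the difference was -0.20 ± 0.28 (SE, adjusted p = 0.593).

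The caudal factors Cdx1, Cdx2 and Cdx4, which set posterior identity and activate Hox genes, did not move as one. Cdx1 was at 231, 337 and 401 TPM at 96 h and 6.20, 5.48 and 7.64 TPM at 120 h. It fell by 5.42 ± 0.19 (SE, adjusted p = 1.88e-10), with no overlap. Cdx2 was at 77.3, 115 and 135 TPM at 96 h and 50.0, 80.5 and 82.1 TPM at 120 h, and its groups overlapped, since the 2 highest gastruloid libraries lay above the lowest 96 h library. Its fall was small, by 0.61 ± 0.21 (SE, adjusted p = 0.0288), and was not called without 96h replicate 2, 96h replicate 3 or gastruloid replicate 1, the last with a difference of -0.38. Cdx4 was at 3.00, 5.55 and 6.76 TPM at 96 h and 11.1, 23.2 and 17.3 TPM at 120 h and rose by 1.57 ± 0.27 (SE, adjusted p = 4.37e-04), with every gastruloid library above every 96 h library. T, the notochord and primitive streak factor that the line reports on, was at 76.3, 120.0 and 134 TPM at 96 h and 12.3, 19.5 and 20.6 TPM at 120 h. It fell by 2.58 ± 0.19 (SE, adjusted p = 2.19e-07). Nkx1-2, a mark of the progenitors shared by neural tube and mesoderm, averaged 136 ± 50.3 TPM at 96 h and 40.3 ± 14.4 TPM at 120 h (SD, n = 3). Evx1 fell from 19 to 2.20 TPM, Sall4 from 192 to 90.5 TPM, Sp5 from 98.3 to 3.72 TPM and Mixl1 from 3.85 to 0.0880 TPM, all called. Sp8, a relative of Sp5, was at 15.7, 19.3 and 21.2 TPM at 96 h and 22.3, 19.2 and 20.3 TPM at 120 h and was not called. Eomes and Tbx4 were below the filter. In 96 h replicate 1, T, Cdx1, Cdx2, Cdx4, Tbx6, Msgn1 and Nkx1-2 were each at the lowest of the 3 libraries, and the same held for gastruloid replicate 1 in all of these but Cdx1. Every pool is a single measurement, so fewer cells of a type and less RNA per cell cannot be told apart in these bulk values, here and below.

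The segmentation clock is a set of oscillating Notch, WNT and FGF genes that times somite formation. Of 15 clock and Notch genes, all tested, 10 were lower and 3 higher, with a median difference of -0.83. Dll1, the main Notch ligand of presomitic mesoderm, was at 456, 501 and 495 TPM at 96 h and 32.7, 39.1 and 44.4 TPM at 120 h. The 3 gastruloid libraries stood close together, 12.5-fold below 96 h by the means, and Dll1 fell by 3.62 ± 0.12 (SE, adjusted p = 7.08e-11). Dll3, a divergent ligand that dampens Notch within the cell, was at 225, 250.0 and 252 TPM at 96 h and 17.5, 27.4 and 27.3 TPM at 120 h. It fell by 3.30 ± 0.17 (SE, adjusted p = 5.85e-09). Hes7, the oscillating repressor at the core of the clock, was at 111, 138 and 150.0 TPM at 96 h and 3.43, 8.14 and 8.91 TPM at 120 h. It fell by 4.17 ± 0.25 (SE, adjusted p = 1.80e-08), again with gastruloid replicate 1 lowest. Lfng was at 239.7, 205 and 195 TPM at 96 h and 26.9, 29.1 and 28.8 TPM at 120 h and fell by 2.87 ± 0.11 (SE, adjusted p = 4.40e-10). The receptor Notch1 fell from 201 to 44.3 TPM and the Notch feedback gene Nrarp from 229 to 35.6 TPM. Hes1, an effector of Notch in many tissues, was at 48.7, 49.7 and 51.6 TPM at 96 h and 96.9, 85.0 and 82.6 TPM at 120 h and rose by 0.80 ± 0.08 (SE, adjusted p = 5.05e-06). Mfng, a relative of Lfng, rose from 2.60 to 6.94 TPM and Heyl from 4.31 to 6.19 TPM, the latter not called without any one of 96h replicate 2, 96h replicate 3, gastruloid replicate 2 and gastruloid replicate 3 (0.27 without 96h replicate 3). Hey2 and Rfng were not called, with differences of 0.07 and 0.15.

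**Figure D2:**
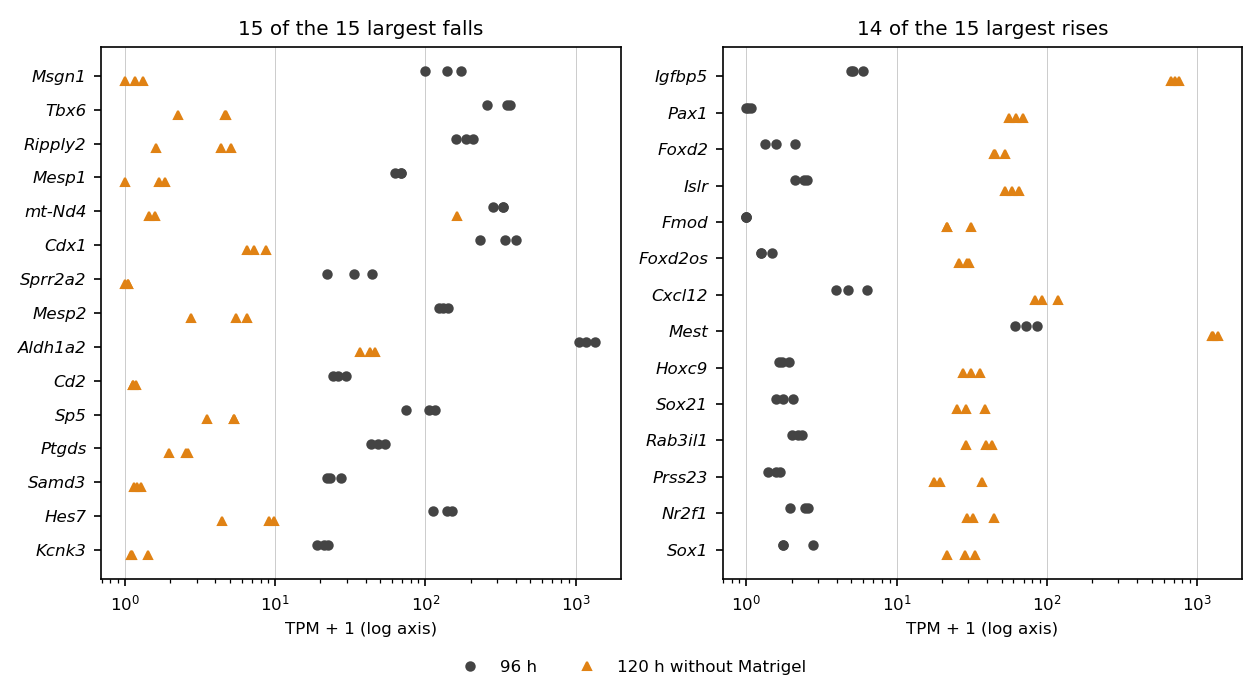
TPM + 1 of each library on a log axis for the 15 genes that fell furthest (left) and 14 of the 15 that rose furthest (right) by the naming rule, with circles for the 3 libraries at 96 h and triangles for the 3 at 120 h without Matrigel. No gene shown has overlapping groups, because the naming rule required this. For mt-Nd4 1 gastruloid library lies at 162 TPM while the other 2 lie below 1 TPM.

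WNT ligands and the genes that respond to WNT were mostly lower. Of 11 WNT ligands tested, 7 were lower and 2 higher (median -1.34), and of 15 feedback and target genes 12 were lower and 1 higher (median -1.37). Wnt3a, the ligand that maintains the tailbud, was at 25.2, 37.2 and 40.0 TPM at 96 h and 1.14, 1.32 and 1.06 TPM at 120 h. It fell by 3.99 ± 0.16 (SE, adjusted p = 4.64e-10), and the 3 gastruloid libraries stood close together near 1 TPM. Wnt8a was at 27.7, 38.2 and 47.4 TPM at 96 h and 3.45, 4.62 and 4.04 TPM at 120 h and fell by 2.92 ± 0.22 (SE, adjusted p = 1.74e-07). Wnt8b was at 5.94, 6.27 and 6.25 TPM at 96 h and 0.0518, 0.222 and 0.337 TPM at 120 h and fell by 2.58 ± 0.13 (SE, adjusted p = 3.07e-09). Wnt5a, a ligand of the non-canonical branch, kept the highest level of the ligands, 56.3 ± 6.28 TPM at 96 h and 32.0 ± 6.00 TPM at 120 h (SD, n = 3), and fell by 0.81 ± 0.22 (SE, adjusted p = 0.00988). Wnt16 rose from 4.84 to 11.9 TPM and Wnt9a from 0.587 to 2.17 TPM. Wnt4 and Wnt11 were not called. Wnt11 was under 1 TPM in all 6 libraries, with means of 0.485 TPM at 96 h and 0.561 TPM at 120 h. It passed the filter through libraries of other groups. Among the responding genes, Lef1, a TCF/LEF factor, was at 365, 317 and 305 TPM at 96 h and 45.0, 60.3 and 65.3 TPM at 120 h and fell by 2.52 ± 0.12 (SE, adjusted p = 2.58e-09). Axin2, a negative feedback gene used as a readout of canonical WNT, was at 59.3, 57.6 and 53.5 TPM at 96 h and 20.2, 19.6 and 17.4 TPM at 120 h. Its groups were well apart, and Axin2 fell by 1.53 ± 0.17 (SE, adjusted p = 8.01e-06). Nkd1, Nkd2, Notum, Tcf7, Sfrp5 and Dkk1 also fell by more than 1. Sfrp2, a secreted WNT binding protein, was the exception at 23.8, 26.2 and 27.8 TPM at 96 h and 139, 109.8 and 93.7 TPM at 120 h, and it rose by 2.08 ± 0.12 (SE, adjusted p = 1.44e-08). Rnf43 and Lgr5 were not called.

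Genes of the FGF family, listed as ligands, fell without exception among those called. Of 9 tested, Fgf13 among them, 8 were lower and 0 higher (median -1.50), and 7 of them fell by at least 1. Fgf13 fell by 1.42. Fgf8, a ligand of the tailbud gradient, was at 57.6, 73.2 and 77.3 TPM at 96 h and 18.0, 26.8 and 27.5 TPM at 120 h. It fell by 1.50 ± 0.16 (SE, adjusted p = 6.52e-06) and was the highest of these ligands at 96 h and the second highest at 120 h, after Fgf18, by mean TPM. Fgf3, Fgf4 and Fgf15, neighbours on chromosome 7, fell together: Fgf3 from 32.4 to 3.50 TPM, Fgf4 from 26.1 to 3.30 TPM and Fgf15 from 37.1 to 5.36 TPM. Fgf17 fell from 30.3 to 9.20 TPM. Fgf18 was at 45.6, 38.9 and 40.2 TPM at 96 h and 28, 33.8 and 37.3 TPM at 120 h, with groups that did not overlap, but the difference of -0.33 ± 0.16 (SE, adjusted p = 0.119) was not called. Genes of the FGF and ERK feedback loop moved less: of 14 tested, 9 were lower and 2 higher, with a median of -0.57. The 2 higher, Spry1 and Fgfr2, became 0 without 96h replicate 2 or 96h replicate 3 and 1 without gastruloid replicate 1 or gastruloid replicate 3. Spry4, an inhibitor of receptor tyrosine kinase signalling, was at 20.3, 22.4 and 23.3 TPM at 96 h and 2.47, 4.13 and 4.94 TPM at 120 h and fell by 2.28 ± 0.16 (SE, adjusted p = 1.13e-07). Dusp6, a phosphatase for ERK, fell from 152 to 105 TPM, a difference of -0.53. The receptor Fgfr1 fell from 194 to 105 TPM, while Fgfr2 was at 29.1, 15.5 and 14.9 TPM at 96 h and 38.6, 28.9 and 29.2 TPM at 120 h and rose by 0.73 ± 0.23 (SE, adjusted p = 0.0233) with overlapping groups, since 96 h replicate 1 lay at the lower edge of the gastruloid libraries. Dusp4, Il17rd and Fgfr3 were not called.

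Genes of the Nodal and Activin pathway, which patterns the primitive streak, were lower in 6 of 11 tested and higher in 2 (median -1.01), the 2 becoming 1 without 96h replicate 1, gastruloid replicate 2 or gastruloid replicate 3. Foxh1, the DNA-binding partner of SMAD2 in this pathway, was at 243, 187 and 171 TPM at 96 h and 9.13, 9.79 and 13.2 TPM at 120 h. It fell by 4.10 ± 0.16 (SE, adjusted p = 4.64e-10), the largest fall in the list. The secreted Nodal antagonists also fell. Cer1 was at 404, 179 and 138 TPM at 96 h and 18.8, 26.2 and 27.2 TPM at 120 h, with 96 h replicate 1 more than 2-fold above the other 2, and it fell by 3.12 ± 0.30 (SE, adjusted p = 2.30e-06). Lefty2 was at 22.1, 45.0 and 27.8 TPM at 96 h and 1.87, 3.32 and 2.99 TPM at 120 h and fell by 3.09 ± 0.25 (SE, adjusted p = 4.56e-07). Nodal itself fell from 14.6 to 3.76 TPM. Gdf3, the call that was lost with those libraries (0.41 without 96h replicate 1), rose from 2.36 to 4.20 TPM and Smad3 from 44.2 to 61.7 TPM. Tdgf1, Gdf1 and Smad2 were not called.

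Retinoic acid is made by Aldh1a2 in the somites and limits the tailbud programme. Aldh1a2 was among the 15 largest falls, at 1346, 1166 and 1056 TPM at 96 h and 35.5, 41.7 and 45.5 TPM at 120 h. The gastruloid mean was 29.1-fold below that of 96 h, and Aldh1a2 fell by 4.83 ± 0.12 (SE, adjusted p = 8.66e-12). Of 11 genes of retinoic acid handling tested, 6 were lower and 2 higher (median -0.53). Cyp26a1, which degrades retinoic acid, fell from 18.9 to 7.30 TPM. The binding proteins parted: Crabp1 was at 551, 458 and 467 TPM at 96 h and 139, 86.5 and 104 TPM at 120 h and fell by 2.17 ± 0.17 (SE, adjusted p = 3.30e-07), while Crabp2 was at 114, 180.2 and 213 TPM at 96 h and 889, 616 and 569 TPM at 120 h and rose by 2.04 ± 0.21 (SE, adjusted p = 5.56e-06). The reductase Dhrs3 rose from 5.38 to 11.3 TPM. Rdh10, Rara and Rarb were not called.

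Somite genes were mixed, with 5 of 11 tested higher and 3 lower (median 0.42). Meox1, a homeobox factor of newly formed somites, was already high at 96 h and stood at 439, 385 and 354 TPM at 96 h and 554, 535 and 608 TPM at 120 h. It rose by 0.53 ± 0.08 (SE, adjusted p = 2.28e-04). Tcf15, which gives somites their epithelial form, was at 264, 173 and 159 TPM at 96 h and 233, 256 and 292 TPM at 120 h, and the difference of 0.42 ± 0.18 (SE, adjusted p = 0.0824) was not called. Meox2 rose from 2.05 to 15.8 TPM. Uncx, a mark of the posterior part of each somite, was at 5.37, 2.59 and 1.82 TPM at 96 h and 17.2, 18.2 and 27.5 TPM at 120 h and rose by 2.42 ± 0.26 (SE, adjusted p = 6.85e-06). Tbx18, a mark of the anterior part, rose less, from 5.02 to 9.20 TPM, a difference of 0.79. Foxc1 and Foxc2, forkhead factors of paraxial mesoderm, went the other way, from 97.4 to 46.2 TPM and from 342 to 121 TPM. Aldh1a2, described above, was also in this list and lower. Pax3 was not called, with a difference of 0.16. Tbx22 was below the filter.

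Sclerotome genes rose in step. Of 12 listed, 9 were tested and 7 were higher, each by at least 1, with a median difference of 2.70 and no member lower. Pax1, the defining sclerotome factor, was at 0.0273, 0.0814 and 0 TPM at 96 h and 55.2, 61.0 and 69.0 TPM at 120 h. It rose by 5.91 ± 0.14 (SE, adjusted p = 8.66e-12) and was the second largest rise of all. Its relative Pax9 was at 0, 0 and 0.0666 TPM at 96 h and 3.86, 3.69 and 3.18 TPM at 120 h and rose by 2.16 ± 0.14 (SE, adjusted p = 5.79e-08). Foxd2 was at 1.09, 0.580 and 0.327 TPM at 96 h and 44.3, 43.7 and 51.5 TPM at 120 h and rose by 4.85 ± 0.19 (SE, adjusted p = 3.95e-10), together with its neighbouring transcript Foxd2os, at 0.260, 0.244 and 0.476 TPM at 96 h and 25.2, 28.6 and 29.5 TPM at 120 h. Scx, a factor of tendon progenitors, rose from 1.38 to 14.5 TPM, and Foxd1 from 3.99 to 21.6 TPM. Col2a1, the main collagen of cartilage, was at 8.43, 8.21 and 6.84 TPM at 96 h and 105, 98.8 and 103 TPM at 120 h. The 3 gastruloid libraries stood close together, and Col2a1 rose by 3.55 ± 0.11 (SE, adjusted p = 3.47e-11). Sox9, a cartilage regulator, was at 22.7, 17.7 and 16.3 TPM at 96 h and 18.2, 20.0 and 18.3 TPM at 120 h and did not pass the test, with a difference of 0.01 ± 0.13 (SE, adjusted p = 0.965). Twist1 was not called either, at 0.17. Nkx3-2, listed at 0 in all 96 h libraries and at 1.80, 2.48 and 2.74 TPM at 120 h, Foxf2 and Acan were below the filter.

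Dermomyotome and early muscle genes showed no common direction. Of 14 listed, 9 were tested, 4 were higher and 3 lower. Met, the receptor that muscle precursors need to migrate, was at 29.6, 22.9 and 23.5 TPM at 96 h and 4.84, 6.24 and 6.57 TPM at 120 h and fell by 1.94 ± 0.16 (SE, adjusted p = 7.23e-07). Sim1 fell from 11.2 to 4.29 TPM. Eya2 was at 3.30, 3.35 and 4.17 TPM at 96 h and 14.6, 13.7 and 18.7 TPM at 120 h and rose by 1.85 ± 0.16 (SE, adjusted p = 7.77e-07), Pax7 rose from 1.11 to 4.81 TPM and Actc1 from 9.46 to 19.2 TPM. Lbx1 stayed under 1 TPM in all 6 libraries and Dmrt2 was not called. The muscle determination factor Myf5 stayed under 1 TPM in all 6 libraries, and Myod1, Myf6 and Myog were listed at 0 in all of them.

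SoxB1 factors and several other neural progenitor genes rose, while Zic2, Zic5 and Fabp7 fell. Of 15 in the SoxB1 and neural list, all tested, 8 were higher and 4 lower (median 0.72). Sox2, which the line reports on, was at 17.6, 27.4 and 32.1 TPM at 96 h and 99.0, 101 and 90.3 TPM at 120 h. It rose by 1.91 ± 0.17 (SE, adjusted p = 9.55e-07). Its relatives rose more: Sox1 was at 0.744, 0.757 and 1.77 TPM at 96 h and 32.1, 27.4 and 20.7 TPM at 120 h and rose by 3.74 ± 0.22 (SE, adjusted p = 1.44e-08), and Sox3 was at 10.6, 15.9 and 20.3 TPM at 96 h and 191, 174 and 149 TPM at 120 h and rose by 3.42 ± 0.22 (SE, adjusted p = 4.47e-08). Sox21, which acts with SoxB1 factors, was at 1.04, 0.565 and 0.763 TPM at 96 h and 37.8, 28 and 24.3 TPM at 120 h and rose by 4.10 ± 0.23 (SE, adjusted p = 1.01e-08). Pax6, a regulator of the neural tube, was at 0.492, 0.663 and 0.844 TPM at 96 h and 41.6, 14.8 and 14.1 TPM at 120 h. It was under 1 TPM in every 96 h library, gastruloid replicate 1 was more than 2-fold above the other 2, and Pax6 rose by 3.71 ± 0.36 (SE, adjusted p = 2.97e-06). Irx3 was at 17.9, 8.92 and 8.83 TPM at 96 h and 128, 92.0 and 81.4 TPM at 120 h and rose by 3.02 ± 0.26 (SE, adjusted p = 8.62e-07). Zic2 and Zic5, zinc finger factors, fell by less than 1. Fabp7, a lipid binding protein of radial glia, fell from 21.2 to 2.97 TPM. Hes5, Msi1 and Zic1 were not called.

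Few domain factors of the neural tube passed the filter, which averages 15 libraries. Of 15 listed only 5 were tested. Below it, Dbx2 was at 0.104, 0 and 0.0445 TPM at 96 h and 2.77, 1.42 and 1.26 TPM at 120 h. Nkx6-2 and Prdm12 had means of 0.168 and 0 TPM at 96 h and 0.774 and 0.511 TPM at 120 h. The groups of Nkx2-2, Msx3, Gsx1 and Gsx2, also below it, overlapped. Dbx1, an interneuron progenitor factor, was at 0, 0.103 and 0.165 TPM at 96 h and 47.9, 5.51 and 4.95 TPM at 120 h. Gastruloid replicate 1 was more than 8-fold above the other gastruloid libraries, all 3 lay above 96 h, and Dbx1 rose by 3.51 ± 0.58 (SE, adjusted p = 3.02e-04). Olig2 was at 0.684, 0.594 and 0.426 TPM at 96 h and 3.65, 2.87 and 3.89 TPM at 120 h and rose by 1.51 ± 0.13 (SE, adjusted p = 5.69e-07), Nkx6-1 rose from 1.89 to 3.69 TPM, Pax2 fell from 2.02 to 1.08 TPM, a call lost without gastruloid replicate 3, and Foxa2 was not called. Genes of young neurons were few: of 18 listed, 6 were tested, 2 were higher and 3 lower. Elavl4 rose from 0.953 to 2.82 TPM and Pou4f1 from 0.550 to 1.45 TPM. Isl1 fell from 3.56 to 0.709 TPM and Map2 from 3.36 to 1.56 TPM. Stmn2, a tubulin-binding protein of growing neurites, was at 13.6, 17.2 and 18.5 TPM at 96 h and 4.96, 4.89 and 4.01 TPM at 120 h and fell by 1.62 ± 0.16 (SE, adjusted p = 3.33e-06), and Tubb3 was not called at 0.37. The proneural factor Neurog2 was at 0.0320, 0.0646 and 0.138 TPM at 96 h and 1.85, 0.503 and 0.867 TPM at 120 h and was below the filter. Of 12 neural crest and roof plate genes 3 were tested. Ets1 rose from 8.31 to 40.8 TPM and Sox8 from 1.06 to 2.53 TPM, and Msx1 fell from 14.5 to 2.76 TPM. The crest markers Sox10, Foxd3, Tfap2a and Tfap2b were below the filter.

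Hox genes code position along the axis, with higher paralogous groups more posterior. In groups 1 to 4, all 12 listed genes were tested, 6 were lower and 1 higher (median -0.84). In groups 5 to 9, all 15 were tested, 10 were higher and 2 lower (median 1.81). Of the 12 genes of groups 10 to 13 none reached the filter, and the highest value in the 6 libraries was that of Hoxc10, 0.844 TPM in gastruloid replicate 3. Hoxb1 was at 227, 228 and 224 TPM at 96 h and 37.9, 42.2 and 50.9 TPM at 120 h and fell by 2.36 ± 0.11 (SE, adjusted p = 2.58e-09). Hoxd1 was at 55.1, 40.9 and 41.3 TPM at 96 h and 5.54, 7.34 and 8.31 TPM at 120 h and fell by 2.54 ± 0.14 (SE, adjusted p = 7.46e-09). At the other end, Hoxc9 was at 0.664, 0.919 and 0.719 TPM at 96 h and 30.3, 34.7 and 26.8 TPM at 120 h and rose by 4.15 ± 0.20 (SE, adjusted p = 2.78e-09). Hoxa9 was at 0.0446, 0 and 0.0914 TPM at 96 h and 8.05, 10.3 and 7.53 TPM at 120 h and rose by 3.19 ± 0.22 (SE, adjusted p = 1.07e-07). Hoxb9 reached the highest Hox level at 120 h, 52.5 ± 18.2 TPM at 96 h and 323 ± 27.9 TPM at 120 h (SD, n = 3), a 6.15-fold rise of the mean. Hoxc6 rose from 2.46 to 41.3 TPM, Hoxa7 from 4.80 to 49.7 TPM and Hoxc8 from 7.21 to 56.2 TPM. The groups did not divide cleanly. Hoxc4 rose from 12.6 to 31.0 TPM, Hoxb5 fell from 29.1 to 9.32 TPM and Hoxd9 fell from 3.86 to 1.42 TPM. Hoxa2, Hoxa3, Hoxb3, Hoxa4, Hoxd4, Hoxa5, Hoxb6 and Hoxd8 were not called.

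**Figure D3:**
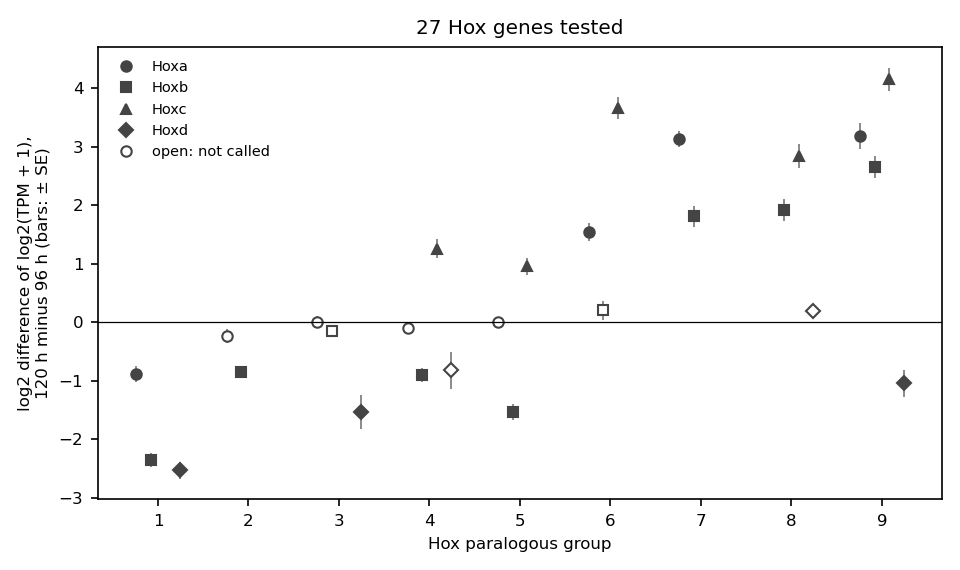
Difference of log2(TPM + 1), 120 h without Matrigel minus 96 h, for the 27 Hox genes tested, by paralogous group, with bars for ± SE and 1 symbol per cluster. Filled symbols were called and open ones were not. Groups 1 to 3 lie at or below 0, while Hoxc9 reaches 4.15 and Hoxd9 lies at -1.04.

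The Hedgehog co-receptors Boc, Cdon and Gas1 and the factors Gli1 and Gli2 rose, while the ligand Shh stayed low. Of 9 tested, 5 were higher and 0 lower (median 0.66). Gli2, a transcription factor of the pathway, was at 7.72, 9.43 and 9.96 TPM at 96 h and 34.9, 34.5 and 38.5 TPM at 120 h and rose by 1.89 ± 0.13 (SE, adjusted p = 8.92e-08). Boc, Cdon and Gas1 rose from 20.3 to 64.5 TPM, from 9.00 to 21.2 TPM and from 102 to 282 TPM. Gli1 rose from 5.05 to 8.47 TPM. Ptch1, the receptor that the pathway induces as feedback, was at 32.4, 29.4 and 28.6 TPM at 96 h and 28.9, 30.2 and 30.2 TPM at 120 h, with a difference of -0.02 ± 0.10 (SE, adjusted p = 0.917). Shh was at 0.530, 0.415 and 0.344 TPM at 96 h and 1.07, 1.41 and 1.45 TPM at 120 h and below the filter, and the notochord factor Noto stayed under 1 TPM in all 6 libraries. Gli3 and Smo were not called. BMP response genes were divided, with 3 of 8 tested higher and 2 lower. Id2 was at 21.9, 19.5 and 15.5 TPM at 96 h and 41.0, 64.6 and 90.5 TPM at 120 h and rose by 1.68 ± 0.25 (SE, adjusted p = 1.12e-04), Id3 rose from 71.3 to 128 TPM and Id1 fell from 47.8 to 29.3 TPM. Msx1, listed here as well as with neural crest, fell from 14.5 to 2.76 TPM, a difference of -2.04. Smad7 rose from 2.71 to 4.00 TPM, and Msx2, Smad6 and Bambi were not called. Of 11 BMP ligands and antagonists tested, 3 were higher and 4 lower. The count of lower ones was 1 without 96h replicate 1 and 2 without gastruloid replicate 1, and that of higher ones was 1 without 96h replicate 2. Gdf11 rose from 8.50 to 17.4 TPM and was the member with the largest difference.

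**Figure D4:**
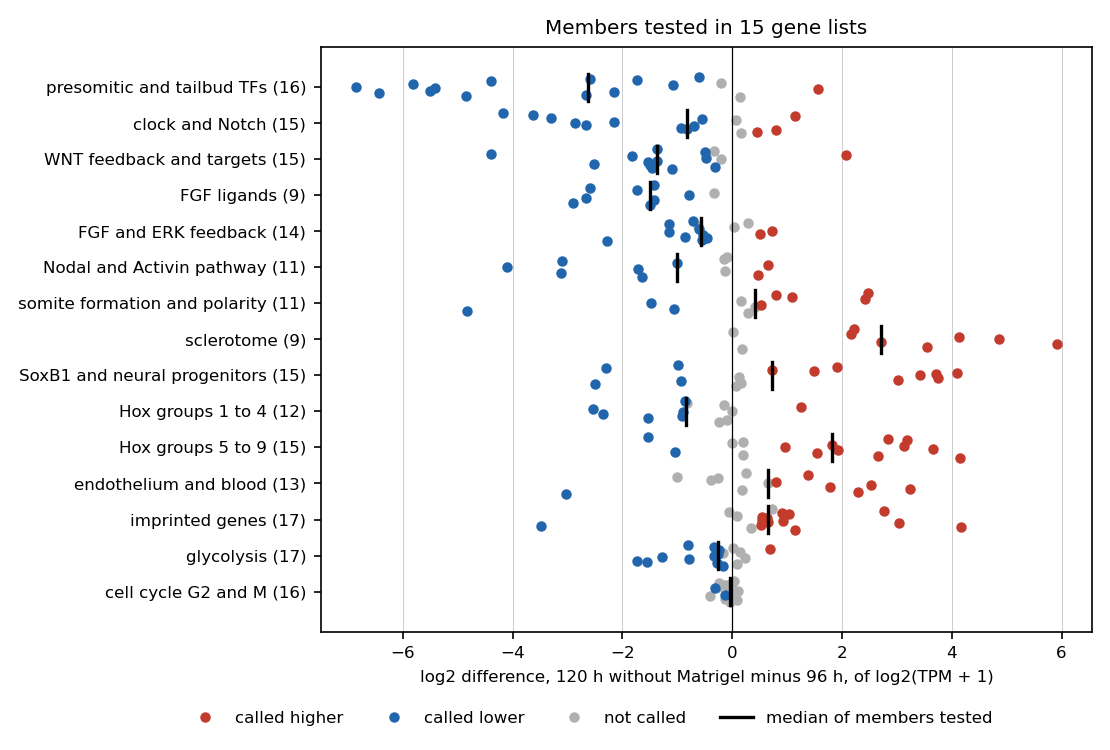
Difference of log2(TPM + 1), 120 h without Matrigel minus 96 h, for each tested member of 15 of the gene lists, with the number tested in brackets and a black bar at the median. Red and blue points were called higher and lower, and grey points were not called. The medians run from -2.62 in the presomitic list to 2.70 in the sclerotome list, and that of the genes of G2 and M lies at -0.05.

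Several endothelial genes rose from near 0 to low levels. Of 13 endothelial and blood genes tested, 6 were higher and 1 lower (median 0.66). Cldn5, a tight junction protein of endothelium, was at 0.102, 0.253 and 0.109 TPM at 96 h and 9.19, 10.5 and 10.1 TPM at 120 h. It rose by 3.24 ± 0.25 (SE, adjusted p = 2.75e-07). Cdh5, the cadherin that defines endothelium, was at 0.198, 0.0718 and 0.193 TPM at 96 h and 6.00, 5.00 and 5.95 TPM at 120 h and rose by 2.52 ± 0.34 (SE, adjusted p = 5.10e-05). Sox18 was at 0.134, 0.310 and 0.333 TPM at 96 h and 4.32, 5.12 and 6.01 TPM at 120 h and rose by 2.28 ± 0.25 (SE, adjusted p = 7.67e-06). The receptors Tie1 and Tek rose from 0.143 to 2.96 TPM and from 0.103 to 1.86 TPM, and the adhesion protein Pecam1 from 1.80 to 3.94 TPM. Kdr, the VEGF receptor of early endothelial progenitors, was at 5.55, 2.70 and 2.22 TPM at 96 h and 4.59, 5.89 and 6.93 TPM at 120 h, and its difference of 0.66 ± 0.36 (SE, adjusted p = 0.16) was not called. Lmo2, shared by blood and endothelial progenitors, was at 24.9, 52.8 and 63.7 TPM at 96 h and 5.65, 4.10 and 3.92 TPM at 120 h and fell by 3.03 ± 0.30 (SE, adjusted p = 2.86e-06). Etv2, Sox17, Flt1, Tal1 and Gata2 were not called, and the embryonic globins Hba-x and Hbb-y were listed at 0 in all 6 libraries.

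Genes of lateral plate and intermediate mesoderm were mostly lower. Of 7 heart and lateral plate genes tested, 5 were lower and 1 higher. Isl1, also listed with young neurons above, was among the lower ones. Gata6 was at 18.4, 6.84 and 5.86 TPM at 96 h and 1.31, 1.65 and 1.38 TPM at 120 h, with 96 h replicate 1 well above the other 2, and it fell by 2.05 ± 0.37 (SE, adjusted p = 5.49e-04). Hand1 was at 9.75, 0.977 and 0.445 TPM at 96 h and 0, 0 and 0 TPM at 120 h, so that its level at 96 h rested on 1 library. Gata4 was at 6.84, 1.91 and 1.74 TPM at 96 h and 0.642, 0.922 and 1.22 TPM at 120 h and fell by 1.05, which became -0.56 without 96h replicate 1 and was not called without gastruloid replicate 1. Foxf1 fell by 0.68, which became -0.45 without 96h replicate 1 and was not called without that library or gastruloid replicate 1. The count of lower genes was 3 without 96h replicate 1 and also 3 without gastruloid replicate 1. Of 7 intermediate mesoderm genes tested, 5 were lower and 2 higher. Lhx1 was at 52.2, 46.5 and 46.8 TPM at 96 h and 2.49, 2.97 and 2.96 TPM at 120 h and fell by 3.70 ± 0.13 (SE, adjusted p = 9.65e-11). Osr1 was at 16.2, 11.6 and 9.52 TPM at 96 h and 1.52, 1.05 and 0.915 TPM at 120 h and fell by 2.62 ± 0.23 (SE, adjusted p = 1.00e-06). Wt1 was listed at 0 in all 96 h libraries and at 1.01, 1.50 and 2.53 TPM at 120 h, and Gata3 rose from 1.11 to 3.26 TPM.

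Genes of gut endoderm and epithelium were mixed, with 3 of 11 tested higher and 2 lower, near the 20.8% and 20.5% over all genes. Krt19 was at 2.36, 2.18 and 1.71 TPM at 96 h and 9.12, 11.6 and 13.2 TPM at 120 h and rose by 1.99 ± 0.22 (SE, adjusted p = 8.01e-06), and Foxa1 rose from 1.14 to 4.16 TPM. Cdh1, the cadherin of epithelia and stem cells, was at 35.5, 39.8 and 36.4 TPM at 96 h and 11.3, 13.4 and 14.8 TPM at 120 h and fell by 1.44 ± 0.19 (SE, adjusted p = 4.59e-05). Trh fell from 196 to 59.4 TPM. Pluripotency genes did not move together either, with 4 of 11 tested lower and 1 higher (median 0.09), and 3 higher without 96h replicate 2 or gastruloid replicate 1. Pou5f1 was at 85.0, 134 and 128 TPM at 96 h and 46.1, 58.8 and 68.6 TPM at 120 h and fell by 0.98 ± 0.25 (SE, adjusted p = 0.00643). Nanog was at 9.36, 18.6 and 15.7 TPM at 96 h and 11.8, 15.9 and 18.4 TPM at 120 h, with overlapping groups and a difference of 0.11 ± 0.24 (SE, adjusted p = 0.753). Dppa5a was at 48.1, 96.6 and 79.7 TPM at 96 h and 147, 207 and 244 TPM at 120 h and rose by 1.43 ± 0.28 (SE, adjusted p = 0.00107). Klf4 fell from 6.11 to 1.72 TPM, while Zfp42, Esrrb, Klf2, Utf1 and Tdh were not called. Of 7 germ cell genes tested, 2 were higher: Ifitm3 rose from 36.6 to 61.7 TPM and Prdm1 from 2.85 to 5.66 TPM. The Prdm1 difference of 0.87 was 0.57 and not called without 96h replicate 2.

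Fibronectin and several laminins fell while some collagens rose. Fn1, which encodes fibronectin, the matrix that surrounds presomitic mesoderm, was at 1397, 1133 and 1073 TPM at 96 h and 149.6, 124 and 136 TPM at 120 h. The means were 8.79-fold apart, and Fn1 fell by 3.12 ± 0.14 (SE, adjusted p = 1.47e-09). Of 10 fibronectin and integrin genes tested, 5 were lower and 3 higher. Itga5, the fibronectin receptor subunit, fell from 32.2 to 17.8 TPM, Itga8 from 6.67 to 1.30 TPM and Itga1 from 5.69 to 0.235 TPM. Itga9 was at 5.73, 5.04 and 4.57 TPM at 96 h and 21.6, 22.5 and 28.1 TPM at 120 h and rose by 2.03 ± 0.14 (SE, adjusted p = 7.30e-08), and Itgb1, the common partner, was not called at 0.05. Of 16 basement membrane genes, 7 were lower and 4 higher, the 4 becoming 2 without 96h replicate 2, 96h replicate 3, gastruloid replicate 1 or gastruloid replicate 3. Lama1, a laminin of early basement membranes, was at 49.2, 46.7 and 45.5 TPM at 96 h and 15.3, 15.5 and 16.6 TPM at 120 h and fell by 1.52 ± 0.08 (SE, adjusted p = 6.86e-09). Hspg2, which encodes perlecan, fell from 34.8 to 15.3 TPM. Col18a1 was at 47.0, 44.3 and 54.1 TPM at 96 h and 154, 140.1 and 143 TPM at 120 h and rose by 1.57 ± 0.09 (SE, adjusted p = 1.67e-08), and Sparc rose from 23.2 to 71.4 TPM.

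Collagens other than type IV, a list made after values were seen, had 19 members tested, of which 8 were higher and 4 lower, and the 4 became 1 without 96h replicate 1 or 96h replicate 2 and 2 without gastruloid replicate 1. Col3a1 was at 0.475, 0.468 and 0.567 TPM at 96 h and 16.6, 17.0 and 15.9 TPM at 120 h and rose by 3.54 ± 0.14 (SE, adjusted p = 3.95e-10). Col1a2 was at 1.67, 1.66 and 1.43 TPM at 96 h and 10.6, 12.3 and 19.7 TPM at 120 h and Col1a1 at 0.466, 0.391 and 0.368 TPM at 96 h and 4.77, 6.85 and 8.31 TPM at 120 h, and both rose, by 2.51 and 2.41. These 3 collagens are also markers of the fibroblasts used as feeder cells. Of 10 feeder fibroblast markers 6 were tested, 3 were higher and 1 lower, with a summed level of 246 to 256 TPM at 96 h and 291 to 336 TPM at 120 h, most of it from Fbln1. Their part in the collagen result was not tested. The fibroblast matrix genes Dcn and Lum went from means of 0.301 to 1.74 TPM and 0.00977 to 1.03 TPM and were below the filter, S100a4 was listed at 0 in every gastruloid library, and Thy1, a surface marker of fibroblasts, fell from 7.01 to 0.704 TPM. Fmod, a small proteoglycan that binds collagen, was listed at 0 in all 96 h libraries and at 20.7, 20.7 and 30.4 TPM at 120 h.

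Regulators of epithelial to mesenchymal transition changed in both directions within families. Of 13 in this list, 7 were higher and 4 lower. Snai1 was at 113, 117 and 121 TPM at 96 h and 13.8, 20.4 and 18.2 TPM at 120 h and fell by 2.69 ± 0.12 (SE, adjusted p = 1.08e-09), while its relative Snai2 rose from 1.37 to 4.20 TPM. Twist2 was at 1.01, 0.873 and 0.928 TPM at 96 h and 20.9, 24.1 and 25.7 TPM at 120 h and rose by 3.66 ± 0.12 (SE, adjusted p = 5.38e-11), while Twist1 was not called. Cdh11, a mesenchymal cadherin, was at 6.80, 4.10 and 3.15 TPM at 96 h and 35.8, 40.3 and 45.1 TPM at 120 h and rose by 2.91 ± 0.20 (SE, adjusted p = 9.60e-08). Cdh6 rose from 2.06 to 12.2 TPM, and Cdh2 was not called at 0.21. Of 15 Eph receptors and ephrins tested, which sort cells at boundaries, 7 were lower and 4 higher. The 4 became 2 without gastruloid replicate 3 and 7 on FPKM. Epha1 was at 37.7, 53.4 and 54.8 TPM at 96 h and 5.57, 7.64 and 8.24 TPM at 120 h and fell by 2.60 ± 0.14 (SE, adjusted p = 7.82e-09). Epha4, which acts at somite boundaries, fell from 91.3 to 23.0 TPM and its ligand Efnb2 from 127 to 43.5 TPM, while Ephb3 was at 10.1, 7.54 and 7.37 TPM at 96 h and 28.5, 24.4 and 30.5 TPM at 120 h and rose by 1.63 ± 0.13 (SE, adjusted p = 3.12e-07). Of 13 axon guidance genes tested, 4 were higher and 4 lower. Nrp1, a receptor for semaphorins and VEGF, was at 5.68, 1.59 and 1.04 TPM at 96 h and 24.5, 24.9 and 28.8 TPM at 120 h and rose by 3.04 ± 0.36 (SE, adjusted p = 1.63e-05). Sema3a, one of its ligands, was at 3.70, 6.12 and 5.88 TPM at 96 h and 22.3, 32.4 and 33.1 TPM at 120 h and rose by 2.28 ± 0.18 (SE, adjusted p = 2.57e-07). Slit3 was at 63.0, 63.7 and 63.9 TPM at 96 h and 12, 13.2 and 13.5 TPM at 120 h and fell by 2.22 ± 0.09 (SE, adjusted p = 4.64e-10), and Plxna2 fell from 54.9 to 13 TPM.

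Most imprinted genes and several IGF pathway genes were higher. Igfbp5, a secreted binding protein for insulin-like growth factors, was the largest rise of all, at 4.16, 3.96 and 4.95 TPM at 96 h and 708, 672 and 756 TPM at 120 h. The means were 164-fold apart, and Igfbp5 rose by 7.06 ± 0.21 (SE, adjusted p = 2.27e-11). Of 10 IGF pathway genes tested, 5 were higher and 0 lower. Igf2 was at 194, 86.9 and 265 TPM at 96 h and 203, 202 and 505 TPM at 120 h, with groups that overlapped widely and a difference of 0.73 ± 0.61 (SE, adjusted p = 0.364). Igfbp2 rose from 49.7 to 83.1 TPM and Igfbp3 from 15.6 to 21.9 TPM, and Igf1, near 0 at 96 h, was at 1.45, 1.95 and 1.80 TPM at 120 h. Of 17 imprinted genes, all tested, 12 were higher and 1 lower (median 0.65). Mest was at 84.7, 60.8 and 72.0 TPM at 96 h and 1272, 1258 and 1386 TPM at 120 h. It rose by 4.16 ± 0.11 (SE, adjusted p = 1.78e-11), to the highest level in this list. Cdkn1c, an imprinted inhibitor of cyclin-dependent kinases, was at 88.3, 51.9 and 41.1 TPM at 96 h and 533, 481 and 433 TPM at 120 h and rose by 3.04 ± 0.20 (SE, adjusted p = 5.31e-08). Plagl1, a transcription factor for other imprinted genes, rose from 2.63 to 22.8 TPM, Grb10 from 201 to 381 TPM and Nnat from 75.9 to 167 TPM. Phlda2, an imprinted inhibitor of placental growth from the same cluster as Cdkn1c, was at 66.4, 70.6 and 79.0 TPM at 96 h and 5.91, 5.76 and 4.94 TPM at 120 h and fell by 3.48 ± 0.17 (SE, adjusted p = 2.63e-09). Peg10, Impact and Zdbf2 were not called. Of 12 genes of DNA methylation and the Lin28 pathway, 2 were lower: Dnmt3b was at 106, 102 and 101 TPM at 96 h and 42.6, 46.4 and 50.5 TPM at 120 h and Lin28a at 392, 454 and 481 TPM at 96 h and 213, 251 and 243 TPM at 120 h, and they fell by 1.14 and 0.90.

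The largest rises not yet described were Islr, Cxcl12, Rab3il1, Prss23 and Nr2f1. Islr, a membrane protein of mesenchymal cells, was at 1.42, 1.55 and 1.10 TPM at 96 h and 57.9, 51.6 and 63.8 TPM at 120 h. Cxcl12, a chemokine that guides migrating cells, was at 5.34, 3.78 and 2.97 TPM at 96 h and 82.0, 92.6 and 118 TPM at 120 h and rose by 4.30 ± 0.16 (SE, adjusted p = 3.04e-10). Nr2f1, a nuclear receptor, rose from 1.32 to 34.3 TPM, Rab3il1, an exchange factor for Rab3 proteins, from 1.20 to 36.3 TPM, and Prss23, a serine protease, from 0.555 to 23.9 TPM. The largest falls not yet described were Cd2, a cell adhesion protein best known from lymphocytes, at 25.2, 28.7 and 23.2 TPM at 96 h and 0.142, 0.136 and 0.189 TPM at 120 h, Ptgds, which makes prostaglandin D2, at 52.8, 47.7 and 42.4 TPM at 96 h and 0.981, 1.57 and 1.64 TPM at 120 h, and Kcnk3, a potassium channel, at 20.2, 21.5 and 18.1 TPM at 96 h and 0.0919, 0.122 and 0.436 TPM at 120 h. Samd3 fell from 23.2 to 0.215 TPM. Sprr2a2, a cornified envelope gene, fell from 32.4 to 0.0309 TPM, and reads may be split between it and its near-identical neighbours. By a stricter description, 29 genes were under 1 TPM in all 96 h libraries and at 5 TPM or more in all gastruloid libraries, and 28 were the reverse. The former included Pax1, Fmod, Hoxc9, Hoxa9, Pax6, Cldn5 and Cdh5, and the latter Msgn1, Mesp1, Cd2, Kcnk3, Itga1 and Wnt8b. Of the 567 and 470 genes with a difference of at least 1, 494 and 421 were protein-coding.

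Glycolysis genes were lower in 11 of 17 tested and higher in 1, by small amounts (median -0.26). Aldoa, a glycolytic aldolase, was at 1885, 2020.5 and 1941 TPM at 96 h and 1076, 1143 and 1148 TPM at 120 h and fell by 0.80 ± 0.07 (SE, adjusted p = 1.08e-06). Aldoc fell from 61.3 to 17.8 TPM, Hk2 from 77.6 to 31.5 TPM and the lactate exporter Slc16a3 from 147 to 50.0 TPM. Slc2a3, a glucose transporter, was at 92.3, 117 and 134 TPM at 96 h and 134, 229.7 and 202 TPM at 120 h and rose by 0.69 ± 0.21 (SE, adjusted p = 0.0172), a call that was lost without 96h replicate 1, gastruloid replicate 2 or gastruloid replicate 3. Of 13 hypoxia targets tested, 5 were lower and 2 higher. Ddit4, an inhibitor of mTOR signalling, was at 219.7, 306 and 322 TPM at 96 h and 56.6, 75.6 and 74.4 TPM at 120 h and fell by 2.01 ± 0.14 (SE, adjusted p = 7.32e-08), and Ndrg1 rose from 2.16 to 9.79 TPM. Of 15 cholesterol synthesis genes, 5 were higher and 1 lower. The 5 became between 0 and 3 when a library was left out, and were 0 without 96h replicate 3 or gastruloid replicate 2.

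The genes of cell division changed little. Of 16 genes of G2 and M, 2 were lower and the other 14 were not called (median -0.05). The 2 were Ccnb2 and Plk1, and the count was 0 without 96h replicate 3, gastruloid replicate 1 or gastruloid replicate 3. Mki67, which marks cycling cells, was at 88.3, 85.9 and 82.6 TPM at 96 h and 80.9, 76.2 and 91.8 TPM at 120 h, a difference of -0.05 ± 0.20 (SE, adjusted p = 0.865). Of 16 genes of G1 and S, 4 were higher and 1 lower, and 3 were lower without gastruloid replicate 2. Ccnd1 was at 109, 109 and 109 TPM at 96 h and 192, 228 and 211 TPM at 120 h and Ccnd2 at 102, 118 and 135 TPM at 96 h and 399, 298 and 292 TPM at 120 h; these D-type cyclins, which drive entry into the cycle, rose by 0.94 and 1.46. Of 14 inhibitors of cyclin-dependent kinases and p53 targets, 4 were lower and 2 higher. Cdkn1a, the p53 target p21, was at 26.0, 37.9 and 28.1 TPM at 96 h and 12, 12.8 and 11.9 TPM at 120 h and fell by 1.24 ± 0.30 (SE, adjusted p = 0.00491). Of 11 stress response genes tested, 3 were lower and 1 higher, with Hsph1, a heat shock protein, at 157, 161 and 156 TPM at 96 h and 88.6, 90.7 and 90.8 TPM at 120 h and falling by 0.80. The counts for G1 and S, inhibitor and stress genes stand beside 20.8% higher and 20.5% lower over all genes tested. Contractile genes were higher in 4 of 7 tested and lower in 1. Myl9, a myosin light chain of smooth muscle, was at 1.97, 3.11 and 3.01 TPM at 96 h and 29.0, 30.8 and 25.6 TPM at 120 h and rose by 3.01 ± 0.13 (SE, adjusted p = 9.95e-10), and Tagln, a smooth muscle actin-binding protein, rose from 0.493 to 4.13 TPM. Acta2 and Tpm1 were not called.

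Some facts of the libraries moved with time. Depth, as coverage per unit of FPKM, ran from 4.00 to 4.32 at 96 h and from 3.28 to 4.61 at 120 h, and 14043 to 14128 and 14220 to 14321 genes reached 1 TPM. The 3 genes of 7SL, the abundant RNA of the signal recognition particle, summed to 16.2 to 20.5 TPM at 96 h and 216 to 273 TPM at 120 h, all called higher. The 7SL RNA is not polyadenylated and its copies are nearly identical, and its part in the other results was not tested. The 13 mitochondrially encoded protein genes summed to 6889 to 7147 TPM at 96 h and 3198 to 4004 TPM at 120 h. Of these, 5 were called lower and 0 higher (median -0.95). The count was 2 without gastruloid replicate 1 or any one 96 h library, 3 without gastruloid replicate 2 and 12 in a fit of the 2 groups alone. mt-Co3 was at 1592, 1802 and 1637 TPM at 96 h and 711, 781 and 667 TPM at 120 h and fell by 1.22 ± 0.18 (SE, adjusted p = 1.08e-04). mt-Nd4 was at 325, 279 and 328 TPM at 96 h and 0.586, 162 and 0.447 TPM at 120 h, and mt-Nd3 was listed at 0 in gastruloid replicate 2, so that the values of these neighbouring genes are uncertain. Nuclear genes of oxidative phosphorylation did not follow. With 20.8% higher and 20.5% lower over all genes, 17 of 77 tested were higher and 7 lower, a median of 0.08. Cytosolic ribosomal protein genes were higher in 14 of 76 and lower in 5, a median of 0.03. After a correction for GC content and length these splits were 10 higher and 19 lower, and 5 higher and 18 lower, so no direction is given for either. By TPM itself the largest gains were Gm23935, Rps14 and Mir6236 and the largest losses Gm42418, Eef2 and CT010467.1. Of these only Rps14, a ribosomal protein at 3527, 3548 and 3555 TPM at 96 h and 6436, 5835 and 5023 TPM at 120 h, and Eef2, a translation elongation factor at 4356, 4317 and 4318 TPM at 96 h and 2746, 2706 and 2836 TPM at 120 h, were called.

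Whether a level at 120 h depended on Matrigel was tested against the TLSMG libraries in the same model. In that comparison 5622 genes were called (39.3%), 4497 higher and 1125 lower in TLSMG, but the median difference over all genes was 0.13 on TPM and -0.02 with median-of-ratios scaling, where the calls were 2763 higher and 2594 lower. The differences below are on TPM, include that shift, and were called the same way under both scalings. Of the 15 largest rises, 6 were lower in TLSMG than in gastruloids, 2 higher and 7 not called, and under median-of-ratios scaling 8, 1 and 6. Of the 15 largest falls, 9 were higher in TLSMG, 2 lower and 4 not called, and under that scaling 4, 3 and 8. Both sets were chosen for extreme values in the same gastruloid libraries. That choice by itself favours lower values in TLSMG among the rises and higher ones among the falls. These counts therefore do not measure an effect of Matrigel. Pax1, at 55.2, 61.0 and 69.0 TPM in gastruloids, was at 12.6, 18.7 and 19.6 TPM in TLSMG, a difference of -1.82 (adjusted p = 8.59e-06). Scx, at 14.5 ± 1.35 TPM in gastruloids and 6.03 ± 0.841 TPM in TLSMG (SD, n = 3), differed by -1.15 (adjusted p = 6.14e-05). Islr and Sox21 were also lower in TLSMG, and Foxd2, Col2a1 and Cxcl12 were not called. Sox3 was at 61.0, 86.0 and 75.6 TPM in TLSMG, a difference of -1.20 (adjusted p = 0.00113), and Myl9 at 7.92, 9.38 and 7.62 TPM, a difference of -1.66 (adjusted p = 8.51e-06).

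Endothelial genes stood higher with Matrigel, in 11 of 13 tested with 0 lower under both scalings. The genes of this paragraph were chosen after their values were seen. Kdr was at 106, 94.8 and 85.2 TPM in TLSMG, a difference of 3.83 (adjusted p = 2.44e-05), and Cdh5 at 40.0, 34.0 and 30.4 TPM, a difference of 2.42 (adjusted p = 2.48e-04). Every TLSMG library lay above every gastruloid library in both. Lbx1, a factor of migrating muscle precursors, was at 0.352, 0.248 and 0.300 TPM in gastruloids and 13.1, 15.7 and 13.5 TPM in TLSMG, a difference of 3.54 (adjusted p = 2.89e-08). Met was at 24.8, 21 and 21.4 TPM in TLSMG, close to its 96 h levels of 29.6, 22.9 and 23.5 TPM, and differed from gastruloids by 1.77 (adjusted p = 2.43e-05). Msx1 at 11.9, 26.3 and 18.2 TPM and Osr1 at 13, 10.6 and 7.37 TPM were likewise higher in TLSMG, by 2.33 (adjusted p = 1.34e-05) and 2.37 (adjusted p = 3.44e-05). In the other direction, 7 of 11 genes of the Nodal and Activin pathway were lower in TLSMG under both scalings, and so were 7 of 11 pluripotency genes on TPM and 9 under median-of-ratios scaling. Foxh1 was at 7.36, 6.44 and 7.50 TPM in TLSMG, a difference of -0.52 (adjusted p = 0.0241), and Pou5f1 at 28.2, 23.3 and 27.9 TPM, a difference of -1.09 (adjusted p = 0.00414). Of the 13 mitochondrially encoded genes, 12 were higher in TLSMG under both scalings, with sums of 9312 to 14554 TPM.

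**Figure D5:**
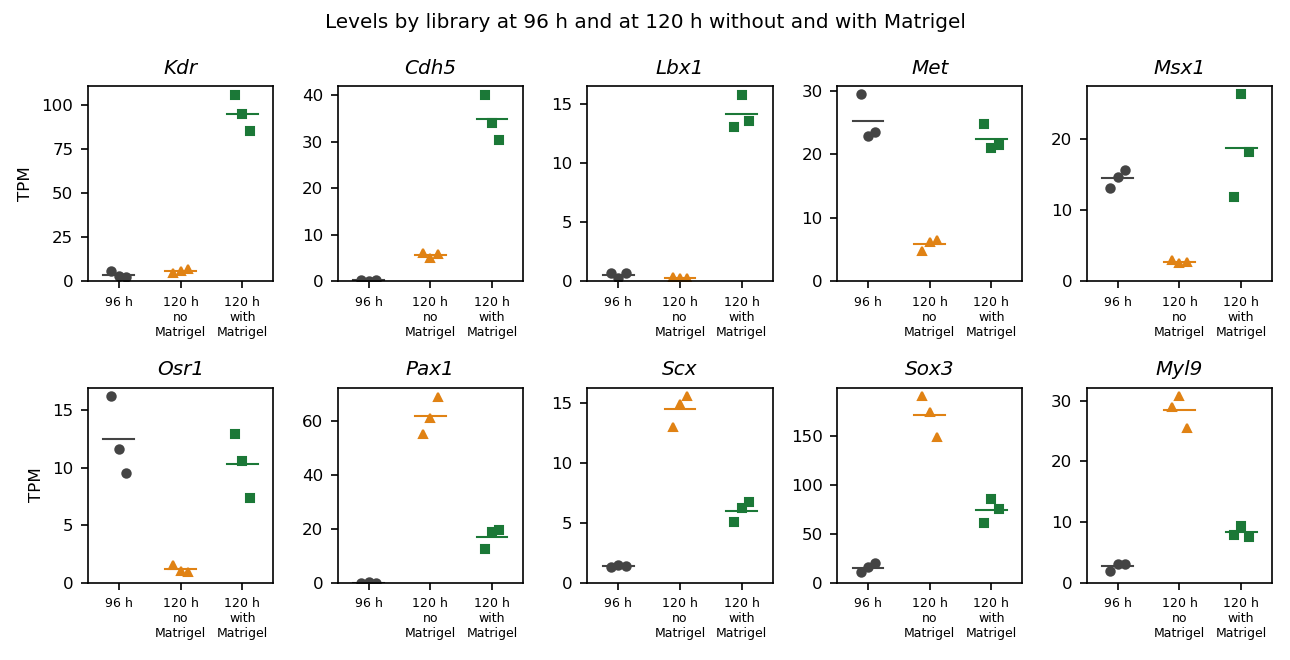
TPM of each library at 96 h (circles), at 120 h without Matrigel (triangles) and at 120 h with Matrigel in TLSMG (squares) for 10 genes, with a line at the mean of 3 libraries and axes that start at 0. Kdr, Cdh5, Lbx1, Met, Msx1 and Osr1 lie higher with Matrigel, and Pax1, Scx, Sox3 and Myl9 lie higher without it.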

How the data were processed

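Bulk polyadenylated RNA was sequenced from 15 libraries in 5 groups of 3, of which the 96 h and 120 h gastruloid groups and, for one question, TLSMG are described here. The 5 single-cell samples of the series were not analysed here. Per the submitters' processing notes, reads were handled with cutadapt 2.4, STAR 2.7.3a and StringTie 2.0 on mm10, with no roles or settings given in the sources used here. The deposited tables give TPM, FPKM and coverage per gene ID, per the file headers. Lines of one gene ID were summed, and every library's deposited TPM totalled 1000000. No read counts are given, so no count model or counting interval was possible, and depth is judged from the ratio of the deposited coverage to FPKM in genes with 1 transcript.

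Values were log2(TPM + 1), and 14290 of 54446 gene IDs were kept, those whose TPM averaged 1 or more across the 15 libraries. One limma 3.58.1 model (R 4.3.3, trend, group means, all 5 groups sharing one estimate of spread) gave both contrasts, with Benjamini-Hochberg adjustment over all genes, two-sided. It was also run on simulated libraries with independent noise for each gene and no shift of whole libraries, so such shifts were not covered. The labels call replicates biological and do not say whether they come from separate days, so p-values measure the spread between these pools. Positions are of GRCm38, for which 53499 of 54446 gene IDs had the same start and end in GENCODE M21.

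Members and the 44 gene lists were chosen with earlier results of these data known, and 5 more lists were added after values were seen (mitochondrially encoded, ribosomal protein, nuclear oxidative phosphorylation, collagen and 7SL genes). The 44 lists held 602 entries for 585 genes. Some genes, Isl1, Pax2, Aldh1a2, Sp5, Msx1 and Fgf4 among them, were therefore counted in more than 1 list. Genes were named as the 15 largest rises and falls with a mean of at least 5 TPM in the higher group, no overlap between groups and a symbol that is not a predicted gene, the 4 largest called differences and the highest level in each list, members that were not called, and the 3 largest gains and losses in TPM itself. Alternatives were another pseudocount, filter, scaling (median of ratios), FPKM, a fit of 2 groups alone, the replicate number as a block, and each library left out. A correction for GC content and length was chosen after seeing the data. A few genes that the naming rules take, 1 of the 15 largest rises among them, are not reported here, and counts of list members include them.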

Additional observations from a re-analysis of the deposited data

How the results depend on the processing

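The 5894 genes called between 96 h and 120 h without Matrigel stayed within 1.5 times under every other fit that was run. Leaving out 1 library gave 4889 to 5235 genes (2475 to 2624 higher and 2319 to 2760 lower), the replicate block 5659, median-of-ratios scaling 6196, GC and length correction 6413, FPKM 6302 and no filter 6612. With a difference of at least 1 required, 1037 genes were called (567 higher and 470 lower). Same-numbered libraries of the 2 groups did not deviate together (correlations of 0.0148, 0.0715 and 0.0185, and -0.0484, -0.0751 and 0.032 for TLSMG and gastruloids), so the replicate numbers are not taken as a pairing. Of 250 named genes that were called, 227 kept call and direction in all 13 settings in which each was tested, and none of the others changed direction. Between TLSMG and gastruloids, leaving out 1 library gave 4261 to 5171 genes (3442 to 4262 higher and 772 to 936 lower). There, the higher and lower calls were 2763 and 2594 with median-of-ratios scaling and 2710 and 2705 on FPKM, and GC and length correction left 3284 in all with 1781 higher. Requiring a difference of at least 1 left 436 (362 higher and 74 lower). The cause of these shifts was not tested. Without read counts, the precision of genes near 1 TPM is unknown, and each group rests on 3 pools of 1 line.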
